A study of Mus musculus with 6 samples.

Results

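The epidermal differentiation complex is a cluster of genes on mouse chromosome 3, many of which are transcribed mainly in the outer, dying layers of the skin. The 46 genes described here were taken by symbol and Ensembl identifier from the 38924 genes of the count table. They comprised 9 small proline-rich proteins (SPRR), 12 late cornified envelope proteins of group 1 (LCE1) and 6 of group 3 (LCE3), 12 S100 calcium-binding proteins, 4 S100-fused proteins, and Lor, Ivl and Crct1. All 46 lie on chromosome 3 between bases 90511034 and 93564643 of the build mm10, and all 46 were among the 15525 genes with enough counts to test.

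As keratinocytes leave the basal layer they replace their plasma membrane with the cornified envelope, a shell of proteins cross-linked by transglutaminases. Loricrin, involucrin, SPRR and LCE proteins are its building blocks, the S100-fused proteins bind the keratin bundles or join the shell, and the single S100 proteins are small calcium sensors. Several SPRR and LCE3 genes are known to be transcribed more strongly in wounded or inflamed skin.

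RNA was sequenced from 6 libraries of mouse epidermal keratinocytes, sorted by flow cytometry for CD49f, the integrin alpha 6 of basal cells. Every library came from tissue with the Rnaseh2b genotype flox/flox, so the controls carried the floxed alleles too. In 3 libraries the Cre genotype was K14-Cre+, in which the keratin 14 promoter drives the recombinase in basal keratinocytes and their descendants, and in 3 it was K14-Cre-. The labels do not give age or strain, nor whether the replicates are all separate animals. The p-values therefore measure only how much these libraries vary, and that variation may be partly technical.

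Totals ran from 22948779 to 31718094 counts, and Rnaseh2b read 5.29, 3.98 and 3.28 CPM (counts scaled to a common library size) in Cre-positive replicates 1, 2 and 3 and 21.8, 20.7 and 21.7 CPM in Cre-negative replicates 1, 2 and 3. This fall passed the test (log2 fold change -2.34 ± 0.17 (SE), adjusted p = 0.0102 by edgeR's quasi-likelihood test). The labels give no replicate numbers, so replicates were numbered here in the order of the count columns. All later values follow the same order of replicates, and a positive fold change (log2 scale) means a higher level with Cre. Cre-positive replicate 3 stood apart: its counts differed from those of the other Cre-positive libraries with a chi-square per degree of freedom of 70.9 and 49.8, against 9.18 to 14.8 for the other pairs. It was also the only female library among the Cre-positive ones, beside 2 male libraries, while the Cre-negative group held 2 female libraries and 1 male. Both groups thus held both sexes, so the libraries of a group did not all come from 1 animal. Where a group or list median that turns on that library is printed, it is given with and without it.

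The sort was checked against layer markers. Per kilobase of exon, the suprabasal keratin Krt10 stood at 22832 ± 3006 CPM in Cre-negative and 29418 ± 3854 CPM in Cre-positive cells (SD, n = 3 each). The basal keratin Krt5 stood at 3892 ± 347 and 3632 ± 98.3 CPM per kilobase, and Itga6, which encodes CD49f itself, at 33.2 ± 1.60 and 37.7 ± 6.83. The libraries thus held more RNA of this suprabasal keratin than of basal keratins. In bulk RNA, fewer cells of a type and less RNA per cell cannot be told apart.

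The promoters of 4 SPRR, 2 LCE3 and 2 other envelope genes are printed first, so that close relatives and major envelope genes can be compared. Each run gives the 200 bases before the RefSeq start (build GRCm38.p6), read 5′ to 3′ along the gene. Capitals mark a match to TGANTCA, a pattern for AP-1 sites that allows any middle letter. Sprr2d and Sprr2e, neighbours with similar promoters, lay at chr3:92338940-92339139, plus strand, and chr3:92351943-92352142, plus strand.
Sprr2d: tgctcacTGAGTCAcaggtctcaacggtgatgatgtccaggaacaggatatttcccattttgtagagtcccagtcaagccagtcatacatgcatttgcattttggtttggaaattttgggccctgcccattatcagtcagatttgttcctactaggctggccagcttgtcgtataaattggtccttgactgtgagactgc
Sprr2e: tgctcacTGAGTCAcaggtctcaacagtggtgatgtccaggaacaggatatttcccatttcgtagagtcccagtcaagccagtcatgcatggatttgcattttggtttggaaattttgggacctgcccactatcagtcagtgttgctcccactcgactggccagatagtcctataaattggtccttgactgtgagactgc

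Sprr1b and Sprr1a form the SPRR1 pair, of which Sprr1b had no overlap between the groups and Sprr1a did. Their windows were chr3:92438780-92438979, minus strand, and chr3:92485882-92486081, minus strand.
Sprr1b: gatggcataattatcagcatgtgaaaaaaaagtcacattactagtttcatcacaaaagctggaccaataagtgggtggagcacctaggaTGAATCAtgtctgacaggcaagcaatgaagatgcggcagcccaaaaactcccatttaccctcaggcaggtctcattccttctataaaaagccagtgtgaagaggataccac
Sprr1a: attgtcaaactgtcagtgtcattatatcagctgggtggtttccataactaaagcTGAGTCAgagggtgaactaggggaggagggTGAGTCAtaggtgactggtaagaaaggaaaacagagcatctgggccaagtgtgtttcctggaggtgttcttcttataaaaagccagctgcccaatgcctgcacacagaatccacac

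The windows of Ivl and Lor, major envelope proteins with the motif at different distances, were chr3:92573736-92573935, minus strand, and chr3:92083143-92083342, minus strand. Those of Lce3c and Lce3d, the members with the smallest p-values and no match to the motif, were chr3:92944286-92944485, plus strand, and chr3:92957190-92957389, plus strand.
Ivl: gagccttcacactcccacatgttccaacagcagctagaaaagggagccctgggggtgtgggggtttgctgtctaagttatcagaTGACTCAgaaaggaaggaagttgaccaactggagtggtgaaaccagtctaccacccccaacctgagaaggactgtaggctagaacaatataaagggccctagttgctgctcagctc
Lor: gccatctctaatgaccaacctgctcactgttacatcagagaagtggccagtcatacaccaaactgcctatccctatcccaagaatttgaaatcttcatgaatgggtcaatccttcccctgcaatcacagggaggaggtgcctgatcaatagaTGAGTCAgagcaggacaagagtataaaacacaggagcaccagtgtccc
Lce3c: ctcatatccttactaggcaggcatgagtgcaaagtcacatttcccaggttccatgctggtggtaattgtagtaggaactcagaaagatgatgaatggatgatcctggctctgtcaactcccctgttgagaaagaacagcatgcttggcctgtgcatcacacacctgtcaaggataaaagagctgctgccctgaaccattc
Lce3d: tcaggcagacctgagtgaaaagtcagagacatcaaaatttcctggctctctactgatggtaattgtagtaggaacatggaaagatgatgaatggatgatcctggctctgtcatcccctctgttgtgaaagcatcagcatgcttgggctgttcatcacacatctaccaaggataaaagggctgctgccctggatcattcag

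No member passed an adjusted p of 0.05 in edgeR or in limma-voom, but most envelope genes lay higher in the Cre-positive libraries. Of all genes tested by edgeR, 0.406% passed as higher and 0.110% as lower. At an unadjusted p under 0.05, 22 of the 46 members were higher, beside 10.3% of all genes, and 1 member, S100a4, was lower, beside 8.48%. In 27 members every Cre-positive library lay above every Cre-negative library, which held for 14.1% of all genes, and S100a4 alone had all 3 Cre-positive libraries below, which held for 13.8%. The members' median log2 fold change was 0.54, against -0.0048 over all genes, and 38 had a positive and 8 a negative sign.

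DESeq2, run as an alternative, passed 12 members as higher beside 3.60% of all genes. They were Sprr1b, Sprr2e, Sprr2h, Ivl, Lce1g, Lce1h, Lce1l, Lce3b, Lce3c, Lce3d, Lce3e and Lce3f. Without Cre-positive replicate 3, edgeR passed 6 members as higher, namely Sprr1b, Sprr2d, Ivl, Lce1l, Lce3c and Lce3d, beside 1.81% of all genes. The median fold change of the 46 came to 0.21 without that library. It had the highest value of all 6 libraries in 34 members, 30 of them outside the S100 group. The share of all genes highest in that library was not counted. Comparing within each sex, 30 of the 34 members outside the S100 group had a Cre-positive to Cre-negative ratio above 1 in both sexes. The only female Cre-positive library was replicate 3 and the only male control Cre-negative replicate 2, so neither sex had replicates in both groups. Among males the ratio was near 1 in some genes, such as Lor (1.07), and larger in others, such as Sprr1b (3.16). The share of all genes with such ratios was not counted either.

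**Figure D1:**
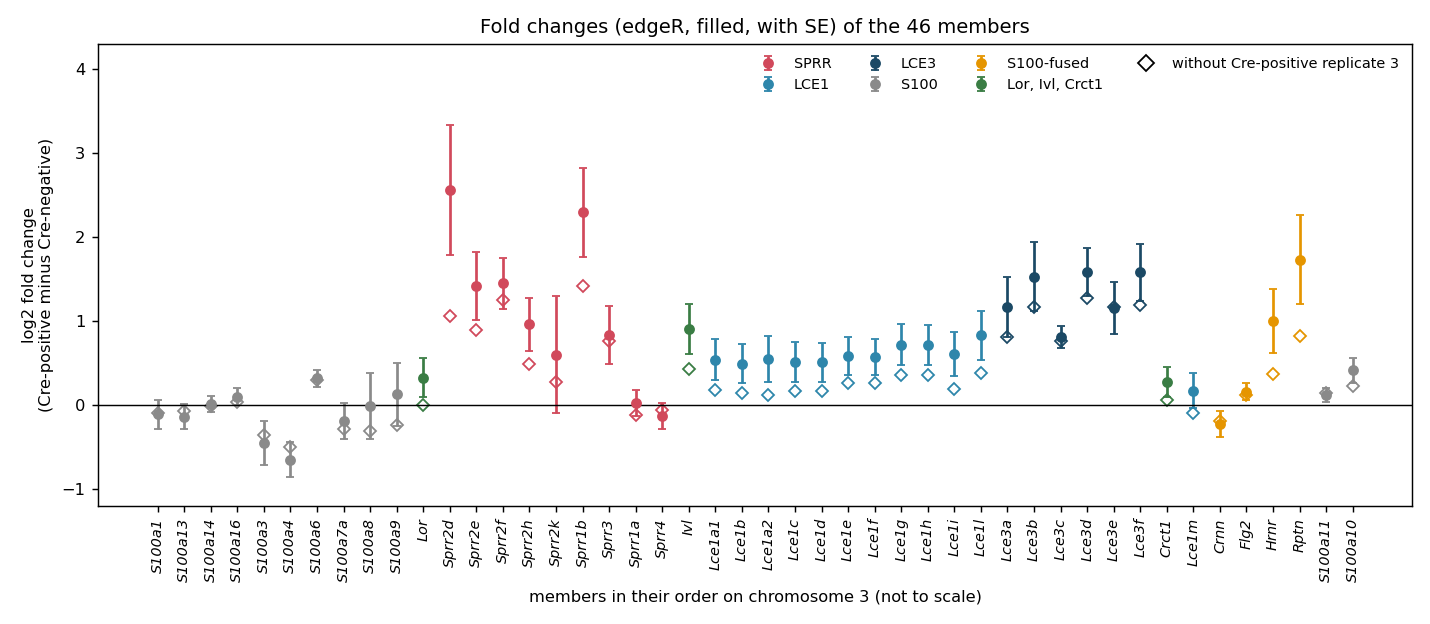
Log2 fold change of each of the 46 members (vertical axis) in their order on chromosome 3 (horizontal axis, not to scale). Filled points with SE bars are the edgeR values from all 6 libraries, and open diamonds those without Cre-positive replicate 3. Sprr2d and Sprr1b stand highest with all libraries, the LCE3 points lie at 0.76 or above without that library, and most S100 points lie near 0.

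The SPRR proteins, which bridge other envelope proteins, held the 2 members with the largest fold changes. The group's median was 0.96, and came to 0.76 without Cre-positive replicate 3 and to 1.66 without Cre-negative replicate 3. Of its 9 genes, 0 passed edgeR or limma-voom, 6 had an unadjusted p under 0.05 and a higher level in Cre-positive cells, 3 passed DESeq2, and 5 had no overlap between the groups. DESeq2 gave no adjusted p for Sprr2f and Sprr2k.

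Sprr2d, a member of the SPRR2 subgroup, read 67.00, 47.2 and 372 CPM in Cre-positive and 23.99, 22.96 and 35.2 CPM in Cre-negative libraries. Its groups did not overlap, but replicate 3 was 6.51 times the mean of the other Cre-positive libraries. The log2 fold change was 2.56 ± 0.77 (SE, adjusted p = 0.173 in edgeR) and 1.06 without replicate 3 (adjusted p = 0.0477). Sprr1b, the SPRR1 gene known to be induced in squamous differentiation, read 289, 300.3 and 1034 CPM in Cre-positive and 88.7, 93.2 and 149 CPM in Cre-negative libraries. All 3 Cre-positive values were above the controls, and replicate 3 was 3.51 times the mean of the other 2. Its fold change was 2.30 ± 0.53 (SE, adjusted p = 0.116), and 1.42 without replicate 3 (adjusted p = 0.0213).

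Sprr2e stood far lower in level, at 3.96, 3.10 and 8.27 CPM in Cre-positive and 1.52, 1.68 and 2.51 CPM in Cre-negative libraries. Its groups did not overlap, with a fold change of 1.41 ± 0.40 (SE, adjusted p = 0.160 in edgeR and 0.0196 in DESeq2), or 0.89 without Cre-positive replicate 3. Sprr2f, low in level, read 1.20, 1.06 and 1.66 CPM in Cre-positive and 0.441, 0.370 and 0.609 CPM in Cre-negative libraries. No library was far from the rest of its group, and the fold change was 1.45 ± 0.31 (SE, adjusted p = 0.0983). Sprr2h read 43.5, 40.8 and 91.04 CPM in Cre-positive and 30.4, 25.01 and 34.7 CPM in Cre-negative libraries. Its fold change of 0.96 ± 0.31 (SE, adjusted p = 0.190 in edgeR and 0.0284 in DESeq2) came to 0.49 without replicate 3.

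The remaining SPRR genes had groups that overlapped. Sprr3, a protein of stratified internal epithelia, read 9.13, 7.52 and 9.65 CPM in Cre-positive and 2.89, 4.03 and 7.84 CPM in Cre-negative libraries. Only Cre-negative replicate 3 reached into the Cre-positive range (fold change 0.83 ± 0.34 (SE), adjusted p = 0.256). Sprr1a, the close relative of Sprr1b, read 153, 132 and 188 CPM in Cre-positive and 137, 178 and 151 CPM in Cre-negative libraries. Its fold change was 0.02 ± 0.15 (SE), and turned to -0.12 without replicate 3. On the chromosome Sprr1a lies 25.2 kb from Sprr3, which in turn lies 17.7 kb from Sprr1b. Sprr4 (-0.13) and the barely detected Sprr2k (0.60, or 0.28 without replicate 3) also had overlapping groups.

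In 8 of the 9 SPRR genes Cre-negative replicate 3 was the highest control. Across the SPRR group its median deviation from the control mean was 0.35 on the log2 scale, against -0.17 and -0.15 in the other controls. The wound keratinocyte genes described below also had their highest control median, 0.25, in that library.

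The LCE3 proteins are the envelope proteins known for their strong induction in damaged or inflamed epidermis. All 6 LCE3 genes had every Cre-positive library above every Cre-negative one, and all 6 had an unadjusted p under 0.05. The group's median fold change was 1.35, and 1.17 without Cre-positive replicate 3. Of the 6, 0 passed edgeR or limma-voom and 5 passed DESeq2.

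Lce3c was by far the most abundant, at 35.2, 42.3 and 42.7 CPM in Cre-positive and 21.1, 20.6 and 26.7 CPM in Cre-negative libraries. Here replicate 3 did not stand out from the Cre-positive group. Its fold change was 0.81 ± 0.13 (SE, adjusted p = 0.0572 in edgeR), the smallest p of the 46 members, and 0.76 without replicate 3 (adjusted p = 0.0348). Lce3d read 6.95, 5.84 and 11.1 CPM in Cre-positive and 2.01, 2.92 and 3.01 CPM in Cre-negative libraries. Its lowest Cre-positive value was well above its highest control (fold change 1.59 ± 0.29 (SE), adjusted p = 0.0755, and 0.0320 without replicate 3).

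The other 4 were rarer. Lce3e read 5.78, 9.25 and 7.22 CPM in Cre-positive and 3.01, 2.18 and 4.76 CPM in Cre-negative libraries, highest in Cre-positive replicate 2 (fold change 1.16 ± 0.31 (SE), adjusted p = 0.145). Lce3f read 2.70, 2.52 and 5.13 CPM and 1.04, 0.945 and 1.45 CPM in the same order of groups (1.58 ± 0.34 (SE), adjusted p = 0.102). Lce3a read 3.13, 1.77 and 4.66 CPM against 1.24, 1.31 and 1.67 CPM, with Cre-positive replicate 2 only just above the controls. Lce3b read 1.81, 1.68 and 3.28 CPM against 0.521, 0.616 and 1.18 CPM. Fold changes of Lce3a and Lce3b were 1.17 ± 0.36 and 1.53 ± 0.41 (SE).

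LCE3 genes resemble each other, and between 12.1% and 49.3% of the 50-base windows of each also occur in another gene. How reads shared between such copies were counted is not given in the sources used here, so the split between single LCE3 genes is uncertain. The same holds for 11 of the 12 LCE1 genes, with 9.66% to 27.1% of windows shared, and for Sprr2e with 10.2%. Sprr1a, Sprr1b, Sprr2h, Lor and Lce1m had 0 such windows.

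**Figure D2:**
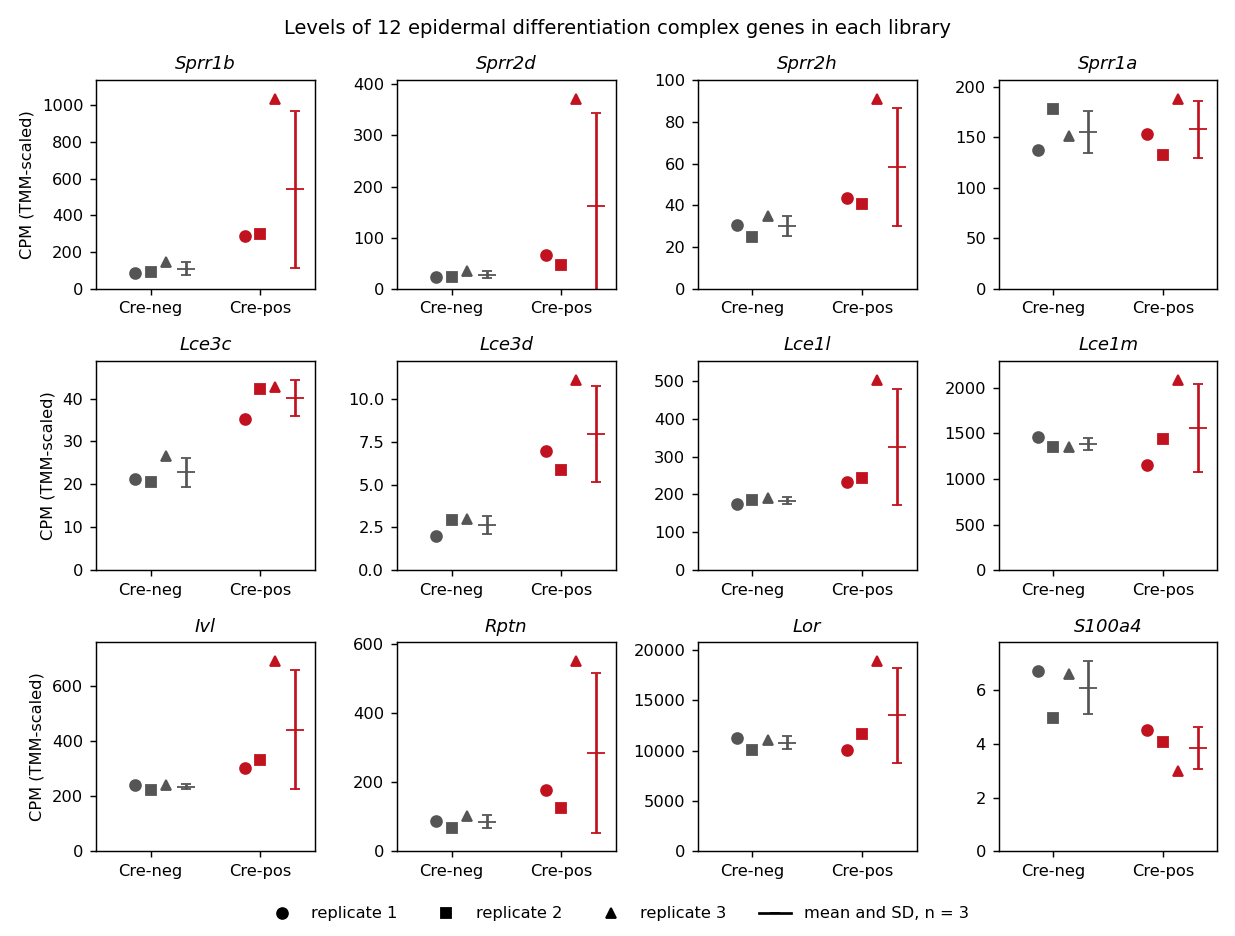
Scaled level (CPM, vertical axis from 0) of 12 members in each library, by group on the horizontal axis, with replicates by symbol and the mean and SD of 3 beside them. Lce3c separates the groups with replicate 3 inside its group, whereas in Sprr2d, Sprr1b, Rptn, Ivl and Lce1l replicate 3 stands far above the other Cre-positive libraries. Sprr1a, Lce1m and Lor overlap between the groups, and S100a4 lies lower in all 3 Cre-positive libraries.

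LCE1 proteins are the abundant late envelope proteins of the upper layers. In 11 of 12 LCE1 genes the groups did not overlap, but the steps were small outside replicate 3. The median fold change of the group was 0.56, and 0.18 without that library. In edgeR and limma-voom 0 of 12 passed, 5 were higher at an unadjusted p under 0.05, and DESeq2 passed 3.

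Lce1l had the largest difference, at 232, 243 and 502 CPM in Cre-positive and 174, 186 and 191 CPM in Cre-negative libraries (fold change 0.83 ± 0.29 (SE), adjusted p = 0.207, and 0.37 with adjusted p = 0.0412 without replicate 3). Lce1g read 366, 399 and 707 CPM against 286, 297 and 313 CPM in the controls (0.72 ± 0.24 (SE)). Lce1h read 187, 203 and 358 CPM against 145, 152 and 159 CPM (0.71 ± 0.24 (SE)). Both came to 0.36 without replicate 3. In each of the 3 the controls lay within a narrow range, and Cre-positive replicates 1 and 2 lay a little above it.

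Lce1f read 383, 406 and 676 CPM against 334, 312 and 342 CPM, and Lce1e 278, 309 and 517 CPM against 251, 230.4 and 255 CPM. Lce1i stood at 277, 302 and 577 CPM against 258, 247 and 256 CPM. Among the most abundant, Lce1a1 read 677, 765 and 1337 CPM against 643, 620.0 and 652 CPM. Near it in level and in pattern, Lce1a2 read 573, 626 and 1213 CPM against 557, 539.7 and 559 CPM, and Lce1c 612, 691 and 1185 CPM against 580.3, 576 and 594 CPM. Finally Lce1d read 469, 505 and 873 CPM against 425, 429 and 445 CPM, and Lce1b 465, 499.5 and 876 CPM against 443, 425 and 443 CPM. In these 8 genes fold changes ran from 0.49 to 0.60, or from 0.12 to 0.26 without replicate 3, and Cre-positive replicate 3 was 1.71 to 2.02 times the mean of the other Cre-positive libraries.

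Lce1m was the exception. It was the most abundant LCE1 gene, at 1149.8, 1440.2 and 2083 CPM in Cre-positive and 1462, 1352 and 1345 CPM in Cre-negative libraries, with groups that overlapped. Its fold change of 0.17 ± 0.21 (SE, adjusted p = 0.685) turned to -0.10 without replicate 3. On the chromosome Lce1m lies apart from the other LCE1 genes, 2.12 kb from Crct1, beyond the LCE3 block.

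Lor encodes loricrin, the main protein of the mature envelope, and was the most abundant member. It read 10025, 11601 and 18846 CPM in Cre-positive and 11231, 10065 and 11096 CPM in Cre-negative libraries. The groups overlapped, and the fold change was 0.32 ± 0.23 (SE, adjusted p = 0.479) and 0.0022 without replicate 3. Ivl, which encodes the early envelope protein involucrin, read 303, 332 and 689 CPM in Cre-positive and 241, 224 and 242 CPM in Cre-negative libraries. Its groups did not overlap (fold change 0.91 ± 0.30 (SE), adjusted p = 0.193, and 0.43 with adjusted p = 0.0348 without replicate 3). Crct1, a cysteine-rich protein of the complex, read 804, 968 and 1327 CPM against 885, 849.6 and 825 CPM with overlap (0.28 ± 0.18 (SE), and 0.05 without replicate 3). The median fold change of these 3 genes was 0.32, and 0.05 without Cre-positive replicate 3. Of the 3, 0 passed edgeR or limma-voom, and Ivl was the 1 with an unadjusted p under 0.05 and the 1 that DESeq2 passed.

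The S100-fused proteins are large, repeat-rich proteins of the granular layer. Their median fold change was 0.58, and 0.25 without Cre-positive replicate 3. Hornerin (Hrnr) read 1305, 1434 and 3628 CPM in Cre-positive and 1171, 987 and 1018 CPM in Cre-negative libraries (1.003 ± 0.38 (SE), adjusted p = 0.228, and 0.37 without replicate 3). Repetin (Rptn) read 178, 125 and 549 CPM against 86.8, 66.5 and 104 CPM (1.73 ± 0.53 (SE), adjusted p = 0.177, and 0.82 without replicate 3). Both had groups that did not overlap, with replicate 3 at 2.65 and 3.62 times the mean of the other Cre-positive libraries. Filaggrin-2 (Flg2) overlapped, at 688, 678 and 739 CPM against 687, 647 and 553 CPM (0.16 ± 0.11 (SE)). Cornulin (Crnn) read 16.3, 15.98 and 15.2 CPM against 14.8, 22.6 and 18.2 CPM (-0.23 ± 0.15 (SE)), with overlap. None of the 4 passed edgeR, limma-voom or DESeq2, and 2 had an unadjusted p under 0.05.

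The 12 S100 genes had a median fold change of -0.0035, with 6 signs positive and 6 negative, and -0.086 without Cre-positive replicate 3. None passed edgeR, limma-voom or DESeq2. At an unadjusted p under 0.05, 2 were higher and 1 was lower.

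S100a6, also called calcyclin, read 105, 89.1 and 101 CPM in Cre-positive and 70.1, 83.99 and 82.9 CPM in Cre-negative libraries (0.32 ± 0.10 (SE), adjusted p = 0.186). S100a10, the partner of annexin A2 at the membrane, read 173, 174 and 248 CPM against 142, 148 and 156 CPM (0.41 ± 0.15 (SE), adjusted p = 0.215, and 0.22 without replicate 3). Neither pair of groups overlapped. S100a4, known from motile and mesenchymal cells, read 4.52, 4.07 and 2.99 CPM against 6.70, 4.97 and 6.62 CPM, with every Cre-positive library below the controls (-0.65 ± 0.21 (SE), adjusted p = 0.182). Of its 50-base windows, 47.4% also occur in the gene model Gm42674, though no gene of the count table overlapped its exons. Whether reads shared with that model changed its counts was not tested.

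S100a3, a protein of the hair cuticle, read 37.1, 28.8 and 26.8 CPM against 31.8, 61.4 and 34.3 CPM (-0.46 ± 0.26 (SE)). Its high value in Cre-negative replicate 2 went with the hair shaft and inner root sheath list, whose 18 tested genes summed to 2415 CPM in that library and to 1169 to 1531 CPM in the other 5. The part of hair cells in the S100a3 difference was not tested. S100a14, the most abundant S100 gene, overlapped at 665, 773 and 764 CPM against 724, 714 and 747 CPM (0.01 ± 0.09 (SE)). S100a16 (0.10) and S100a11 (0.12), both common in epithelia, and the low S100a1 (-0.11), S100a13 (-0.14) and S100a7a (-0.20) had overlapping groups as well. Of the 50-base windows of S100a11, 41.1% also occur in the gene model Gm12854, so its counts are uncertain.

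S100a8 and S100a9, which form the inflammation protein calprotectin, were scarce in both groups. S100a8 read 3.63, 1.90 and 4.75 CPM against 2.09, 4.52 and 3.81 CPM, and S100a9 5.78, 4.78 and 9.98 CPM against 3.73, 6.28 and 8.75 CPM. Both sets overlapped (-0.02 ± 0.39 and 0.12 ± 0.37, SE), and the sign of each turned when single libraries were left out. Calprotectin is abundant in neutrophils, so their markers were read too: Ly6g and Elane had 0 counts in all libraries, and 5 of the 12 listed genes had enough counts to test. The neutrophil list summed to 17.7 to 23.5 CPM in Cre-positive and 12.96 to 14.7 CPM in Cre-negative libraries, mostly from Itgam, which myeloid cells share.

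Levels were compared between genes per kilobase of exon. In Cre-negative cells Lor led with 6083 ± 359 CPM per kilobase (SD, n = 3), followed by Lce1m with 1581 ± 74.5, Crct1 with 1077 ± 38.01 and Lce1a1 with 902 ± 23.1. At the lower end stood Sprr2f with 0.777 ± 0.202 and Sprr2k with 0.667 ± 0.718. Of the 45 pairs of neighbours in this order, 12 were separated beyond the range of their libraries, mostly among the abundant LCE1 genes. In Cre-positive cells Sprr1b moved from place 19 to place 11, with 659.7 ± 521 CPM per kilobase, and Sprr2d from place 27 to place 18, with 238 ± 267. In both genes replicate 3 lay far above the other Cre-positive libraries. In all, the 46 genes took 2.13% to 2.32% of the counts in 5 libraries and 3.56% in Cre-positive replicate 3.

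**Figure D3:**
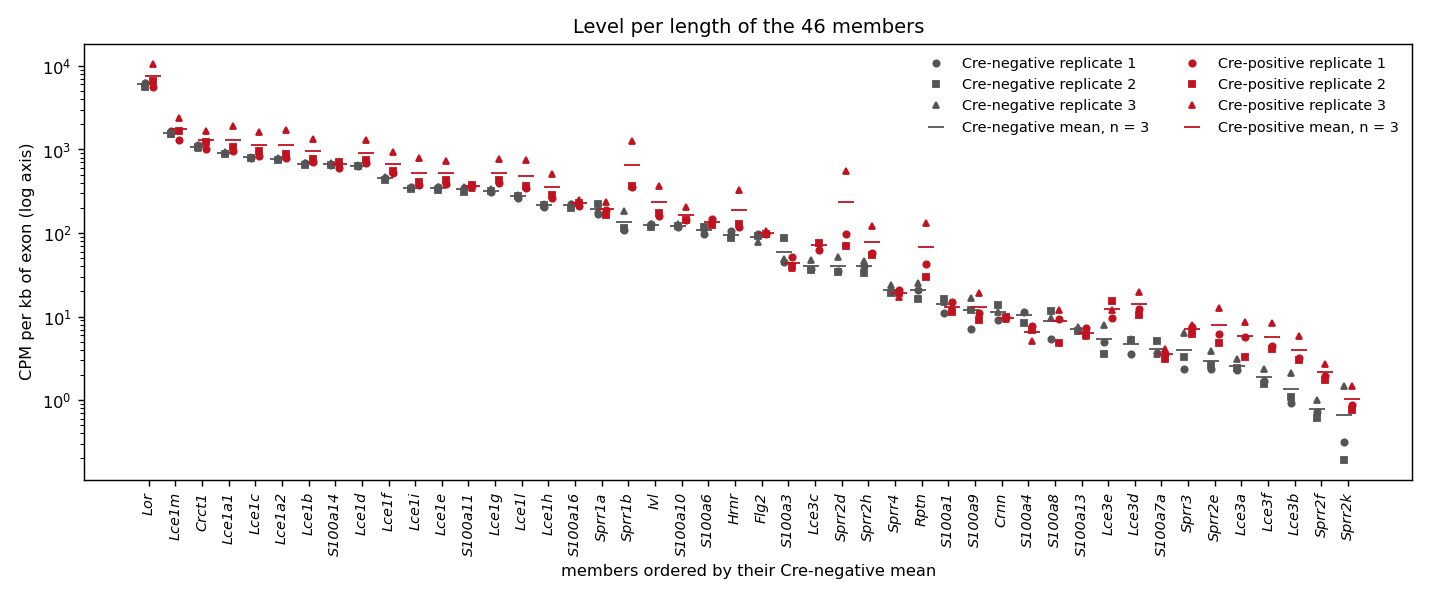
Level per length of the 46 members (CPM per kilobase of exon, log axis) in each library, ordered by their Cre-negative mean, with replicates by symbol and group means as dashes. Lor stands above all others, and the gap between groups is widest for Sprr1b, Sprr2d, Rptn and the rare LCE3 and SPRR2 genes.

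By position, the LCE1 genes from Lce1a1 to Lce1l, which lie in 1 run, all had fold changes between 0.49 and 0.83, and the LCE3 run lay between 0.81 and 1.59. Crct1 and Lce1m, adjacent to each other, were both low at 0.28 and 0.17. Without Cre-positive replicate 3 the LCE1 run lay between 0.12 and 0.37, the LCE3 run between 0.76 and 1.27, and Crct1 and Lce1m at 0.05 and -0.10. The S100 genes from S100a1 to S100a9 lie 1385 kb from Lor.

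RefSeq promoters of build GRCm38.p6 were found for 42 of the 46 members, and the 250 bases before each start were searched. A match to TGANTCA reads the same on both strands. TGANTCA was found in 14 of the 42, and in 7.82% of 27025 genes. It occurred in 7 of 9 SPRR genes, in Ivl and Lor, in 3 of 4 S100-fused genes and in 2 of 10 S100 genes, but in 0 of 11 LCE1 and 0 of 6 LCE3 genes. In Sprr2d and Sprr2e, printed above, the match began 193 bases before the start, in Sprr1b 111 bases, in Ivl 116 bases and in Lor 48 bases. Sprr1a had 2 matches, beginning 146 and 116 bases before the start. The middle letter was A in Sprr1b, Crnn, Flg2 and S100a16, T in Rptn, and G or C in the other matches. The letters therefore occurred both in genes with large differences and in genes whose groups overlapped. A match is a description of the letters only.

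TATAAA was searched only along the strand of the gene. It was found in 18 of the 42 windows and in 8.94% of all genes. Among the members these included 8 of 9 SPRR genes and 0 of 6 LCE3 genes. TGACNNNGC, the letters of the antioxidant response element, was searched on both strands. It was found in 8 of the 42 windows, in 3 of 6 LCE3 genes and in 11.5% of all genes. In Sprr1a it overlapped a TGANTCA match. After alignment with gaps, the promoters of Sprr2d and Sprr2e were identical at 90.0% of the 250 bases. Yet Sprr2d stood at 40.2 ± 9.97 and Sprr2e at 2.95 ± 0.819 CPM per kilobase in Cre-negative cells. The promoters of Sprr1a and Sprr1b were identical at 64.4%. By the same measure Sprr1b and Sprr3 gave 65.2%, and Sprr1a and Sprr2d 56.4%.

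Other genes of the differentiation programme were read from lists, and no gene of the keratinocyte and hair lists passed edgeR or limma-voom. Among 12 tested further genes of the complex the median fold change was 0.63, and 0.23 without Cre-positive replicate 3. At an unadjusted p under 0.05, 6 were higher, and DESeq2 passed 4. Lce1j read 96.04, 97.2 and 201 CPM against 63.2, 66.6 and 70.6 CPM (0.98 ± 0.28 (SE), adjusted p = 0.166), Lce1k had a fold change of 0.85, and that of Sprr2b was 1.72. Without replicate 3 these came to 0.53, 0.48 and 0.92. Flg, the filaggrin gene and the most abundant of them, read 3929.5, 4285 and 6123 CPM against 4274, 3529 and 3735 CPM (0.31 ± 0.18 (SE), adjusted p = 0.388, and 0.09 without replicate 3).

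Envelope enzymes and partners had a median of 0.36 over 13 genes, and 0.17 without Cre-positive replicate 3, with 5 higher at an unadjusted p under 0.05 and Tgm1 and Blmh the 2 passed by DESeq2. Tgm1, the membrane transglutaminase that cross-links the envelope, read 343, 375 and 535 CPM against 306, 276 and 281 CPM (0.54 ± 0.17 (SE), adjusted p = 0.179, and 0.32 without replicate 3). Blmh, a protease that breaks down filaggrin, had 0.91 ± 0.30 and the corneodesmosome gene Cdsn 0.69 ± 0.25 (SE), and the most abundant, the filaggrin-processing protease Asprv1, had 0.59 ± 0.28. Without replicate 3, Blmh came to 0.46, Cdsn to 0.32 and Asprv1 to 0.17. Of 17 differentiation regulators, 4 were higher and 1 lower at an unadjusted p under 0.05 and 1, Klf4, passed DESeq2. Their median of 0.089 turned to -0.024 without replicate 3. The barrier factor Klf4 read 961, 1029 and 1634 CPM against 805, 786 and 757 CPM (0.63 ± 0.20 (SE), adjusted p = 0.186), Prdm1 had a fold change of 0.44, and that of Hopx was 1.25. Without replicate 3 these came to 0.35, 0.24 and 0.41. Among 7 partners of S100 proteins the median was 0.12, 1 (Anxa1, 0.45 ± 0.13, or 0.29 without replicate 3) was higher at an unadjusted p under 0.05 and passed DESeq2, and Anxa2, the partner of S100a10, was at 0.12 ± 0.12, with a sign that turned without replicate 3.

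Layer markers outside the complex were read in the same libraries. The 18 suprabasal genes outside the complex summed to 105732 to 143045 CPM in Cre-positive and 83591 to 104831 CPM in Cre-negative libraries, with a median fold change of 0.42, or 0.22 without Cre-positive replicate 3. In edgeR 0 passed, at an unadjusted p under 0.05 9 were higher and 2 lower, and DESeq2 passed 4 as higher and 2 as lower. The desmosomal cadherin Dsc1 had 0.84 ± 0.18 (SE, adjusted p = 0.103) and Krt10 0.37 ± 0.15. In the other direction Krt77 had -0.93 ± 0.21, and Krt2, a keratin of ear, tail and sole skin, read 0.461, 0.221 and 0.143 CPM against 10.5, 1.11 and 29.3 CPM (-5.51 ± 1.22 (SE), adjusted p = 0.104). The 11 basal genes summed to 17589 to 19710 CPM against 17752 to 20062 CPM, with a median of 0.088 that turned to -0.032 without Cre-positive replicate 3. Among them Krt15 had -0.92 ± 0.15 (SE, adjusted p = 0.0572) and Itgb4 0.50 ± 0.10, and DESeq2 passed both and no other gene of the list. At an unadjusted p under 0.05 these were also the 1 lower and the 1 higher gene. The part of more suprabasal cells in the members' differences was not tested.

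Wound keratinocyte genes mark activated epidermis. Of 8 tested, 0 passed edgeR, 5 were higher and 1 lower at an unadjusted p under 0.05, DESeq2 passed the same numbers, and the median was 1.01, or 0.64 without replicate 3. Krt16, a keratin of wounded and hyperproliferative epidermis, read 1057, 983 and 902 CPM against 429, 329.9 and 588 CPM (1.13 ± 0.20 (SE), adjusted p = 0.0755), and Krt6b 843, 608 and 639 CPM against 222, 218 and 412 CPM (1.29 ± 0.27 (SE)). Krt6a had a fold change of 1.12 ± 0.26, and that of the more abundant Krt17, also a hair follicle keratin, was -0.66 ± 0.18. The list's summed CPM overlapped between the groups, at 2918 to 3711 against 2332 to 3111 CPM.

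**Figure D4:**
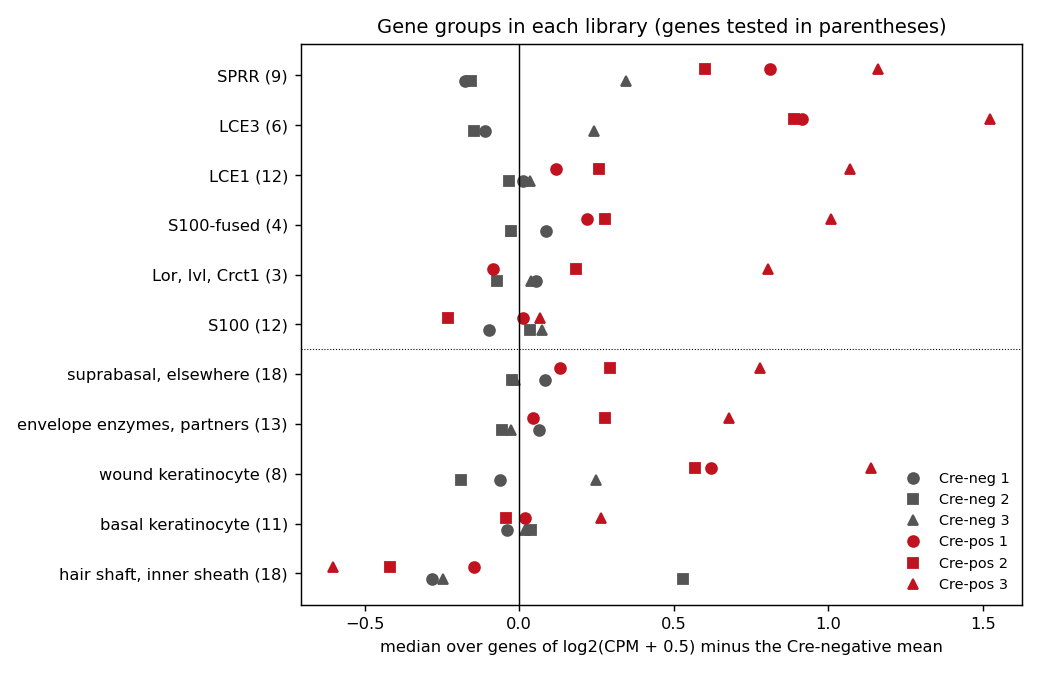
Median over the genes of each group (rows, number tested in parentheses) of log2(CPM + 0.5) minus the Cre-negative mean, by library. Above the dotted line are the members' subfamilies and below it lists of other genes. LCE3 and wound keratinocyte medians of all 3 Cre-positive libraries lie above the controls, as do those of SPRR, S100-fused, LCE1 and suprabasal genes. In each of these groups, and in the envelope genes (Lor, Ivl, Crct1), Cre-positive replicate 3 lies above replicates 1 and 2. For LCE3 genes it lies at 1.52, beside 0.92 and 0.89 in replicates 1 and 2. For wound keratinocyte genes it lies at 1.14, beside 0.62 and 0.57. Cre-negative replicate 2 stands apart in the hair genes.

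Hair shaft and inner sheath genes lay lower, with 18 of 18 signs negative and a median of -0.43, which came to -0.055 without Cre-negative replicate 2. In edgeR 0 passed, 5 were lower at an unadjusted p under 0.05 and DESeq2 passed 2. Krt35 read 29.04, 24.2 and 20.8 CPM against 33.7, 58.5 and 34.6 CPM and Krt71 345, 277 and 289 CPM against 395, 641 and 395 CPM, each highest in Cre-negative replicate 2, as was Tchh, the trichohyalin gene of the complex (-0.35 ± 0.17).

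Markers of other cell types in the sort were read as well. Of 9 melanocyte genes 6 rose past the edgeR threshold, with Dct, the most abundant, at 376, 382 and 318 CPM against 192, 217 and 203 CPM (0.82 ± 0.10 (SE), adjusted p = 0.0339), and the list summed to 683 to 778 CPM against 381 to 443 CPM. Of 11 macrophage genes 1 rose past that threshold, Lyz2, at 16.6, 11.9 and 15.9 CPM against 5.01, 6.16 and 6.55 CPM (adjusted p = 0.0368), and the sums were 201 to 263 CPM against 170.1 to 187 CPM. At an unadjusted p under 0.05, 7 of the 11 were higher, 8 had every Cre-positive library above the controls, and DESeq2 passed 4. T cell genes had a median of -0.95 over the 6 tested genes, and sums over 7 genes of 20.1 to 30.3 CPM against 29.2 to 34.0 CPM. Fibroblast genes summed to 599 to 1986 CPM against 521 to 1270 CPM over 8 genes, and endothelial genes to 2.12 to 24.1 CPM against 2.93 to 20.8 CPM over 6. No gene of the T cell, fibroblast, endothelial or neutrophil lists passed edgeR or limma-voom. At an unadjusted p under 0.05, 4 T cell genes were lower, 1 fibroblast gene and 2 neutrophil genes were higher and 0 endothelial genes differed, and DESeq2 passed 3 T cell genes as lower and 1 fibroblast gene, Vim, as higher. The part of these cells in the members' differences was not tested. An exact two-sided permutation test of the summed CPM of each of the 14 lists cannot go below p = 0.1 with 3 libraries against 3, and its smallest adjusted p was 0.20.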

How the data were processed

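The deposited table holds raw counts with exon positions and lengths, per the file headers. GSNAP, featureCounts and the build mm10 were used, per the submitters' processing notes. Their versions, strandedness and treatment of multi-mapping reads were not given in the sources used here. The 46 members, the 14 gene lists and the alternatives were chosen with earlier results of these data known.

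All 46 members were found, Lce1d and the listed Flg by position, since their identifiers were retired (at least 95% reciprocal overlap in the same build). Genes were filtered with filterByExpr (minimum count 10), scaled by TMM (trimmed mean of M values), and tested with edgeR 4.0.16 (R 4.3.3) without covariates. Two-sided p-values were Benjamini-Hochberg adjusted over the 15525 genes, and the threshold was 0.05. CPM values use the TMM-scaled totals, and 3 counts correspond to 0.0922 to 0.143 CPM, which covers counting error only. The fits were tested on simulated data. Named genes were the 4 smallest p-values and the most abundant member of each subfamily, members without overlap and a log2 fold change of at least 0.5 in size, and of each list the genes past the threshold, the 3 smallest p-values and the most abundant, of which some are counted and not named. Krt5, Krt14, Itga6, Krt1 and Krt10 served as layer markers. Sex was read from Xist and Y-linked genes. Alternatives were DESeq2 1.42.0, limma-voom (limma 3.58.1), other scalings and filters, sex as a covariate, and leaving out each library.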

Additional observations from a re-analysis of the deposited data

How the results depend on the processing

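Of the 46 members, 39 kept their sign under each of the 13 alternatives that tested them, and 2 of the 46, Sprr2f and Sprr2k, were not tested under the filter at a mean of 1 CPM. DESeq2 passed 12 members as higher, the fit without a filter beyond 1 count passed 2, and leaving out single libraries passed 0 to 6. Members higher at an unadjusted p under 0.05 numbered 11 to 27 when single libraries were left out, and members wholly below the controls 1 to 3, or 2 under total count scaling. The shares of all genes in these settings were not counted, so these numbers cannot be read as results about the members. Over all genes, 63 passed as higher and 17 as lower. These counts were 27 higher under total count scaling, 104 and 38 without the filter, 559 and 288 in DESeq2, 34 and 8 with sex as a covariate, and 0 to 288 and 0 to 134 without single libraries, the highest of each being without Cre-positive replicate 3. The cause of these differences was not tested. Total count scaling moved the median of all genes to -0.12 and that of the members to 0.40.

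Leaving out single libraries gave median fold changes of 0.76 to 1.66 for SPRR, highest without Cre-negative replicate 3, 0.25 to 0.71 for the S100-fused genes, 0.18 to 0.73 for LCE1, and -0.15 to 0.042 for S100 genes. Signs turned under total count scaling for S100a14 (-0.11), S100a16 (-0.021), S100a9 (-0.013), Sprr1a (-0.10), Krt14 (-0.055) and Anxa2 (-0.00509). Leaving out single libraries gave -0.26 to 0.00062 for S100a1, -0.028 to 0.078 for S100a14, -0.31 to 0.27 for S100a8, -0.24 to 0.45 for S100a9, -0.12 to 0.13 for Sprr1a, -0.098 to 0.35 for Lce1m, -0.024 to 0.13 for Krt14 and -0.0083 to 0.18 for Anxa2.

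No paired analysis was possible because the labels give no replicate numbers. With 3 libraries a group, 1 of which stands apart, and sexes unevenly spread, small differences were not detectable, and the split of counts between genes with shared sequence is uncertain.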
